A study of Mus musculus with 10 samples.

Results

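The 10 genes described here belong to the Wnt signal that organises the liver around its central veins, followed in cultured mouse hepatocytes. They were chosen by name as Wnt2, Wnt9b, Rspo3, Axin2, Lgr5, Glul, Oat, Rnf43, Znrf3 and Tbx3, and all 10 had 1 row each among the 56748 genes of the deposited tables. The cells were primary hepatocytes of wild-type mice kept overnight in medium conditioned by adipocytes, and their poly-A RNA was sequenced. Both media came from adipocytes grown from the stromal vascular fraction (the non-fat cells) of inguinal fat of male mice fed an obesogenic diet for 6 months, with 3 donor mice given. The adipocytes were made with a cocktail that contained insulin, dexamethasone, IBMX, indomethacin and 1 µM rosiglitazone, and were starved overnight before the medium was collected. In the first group, Mttp_KO_CM, the fat donors were A-Mttp-/- mice and the adipocytes are labelled as Mttp knockout. The product of Mttp, the microsomal triglyceride transfer protein, moves lipid to nascent lipoproteins. In the second, Mttp_flox_CM, they were Mttp f/f mice, which carry floxed alleles. Each group had 5 libraries. The sources used here do not give the driver of the deletion, the age of the mice or the number of hepatocyte donors, and wild-type hepatocytes were used in both groups.

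In liver, endothelial cells of the central vein and sinusoids secrete WNT2 and WNT9B, and R-spondin 3, made by the same endothelium and by stellate cells, strengthens the Wnt signal in the nearest hepatocytes. It does so by binding LGR receptors and clearing RNF43 and ZNRF3, ubiquitin ligases that otherwise remove Frizzled receptors from the cell surface. Beta-catenin then switches on pericentral genes, among them Glul and Oat, and feedback genes such as Axin2.

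The pericentral enzymes Glul and Oat were higher in Mttp_KO_CM, by 27.3% and 22.2%, while the ligands and the feedback genes showed no change that passed the test. Of the 7 members with enough counts to be tested, 2 rose and 5 did not pass (edgeR quasi-likelihood test, Benjamini-Hochberg adjusted p under 0.05 over all 14183 genes tested). Among all genes tested, 36.4% were called, 18.2% higher (2585 genes) and 18.1% lower (2571 genes), so 2 of 7 members lay near that background. Scaling by library size alone called 1982 genes higher and 3217 lower. The other 3 members, Wnt9b, Axin2 and Lgr5, had too few counts for the filter. Because the 7 tested members include all those with high counts, they do not stand for the 10.

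**Figure D1:**
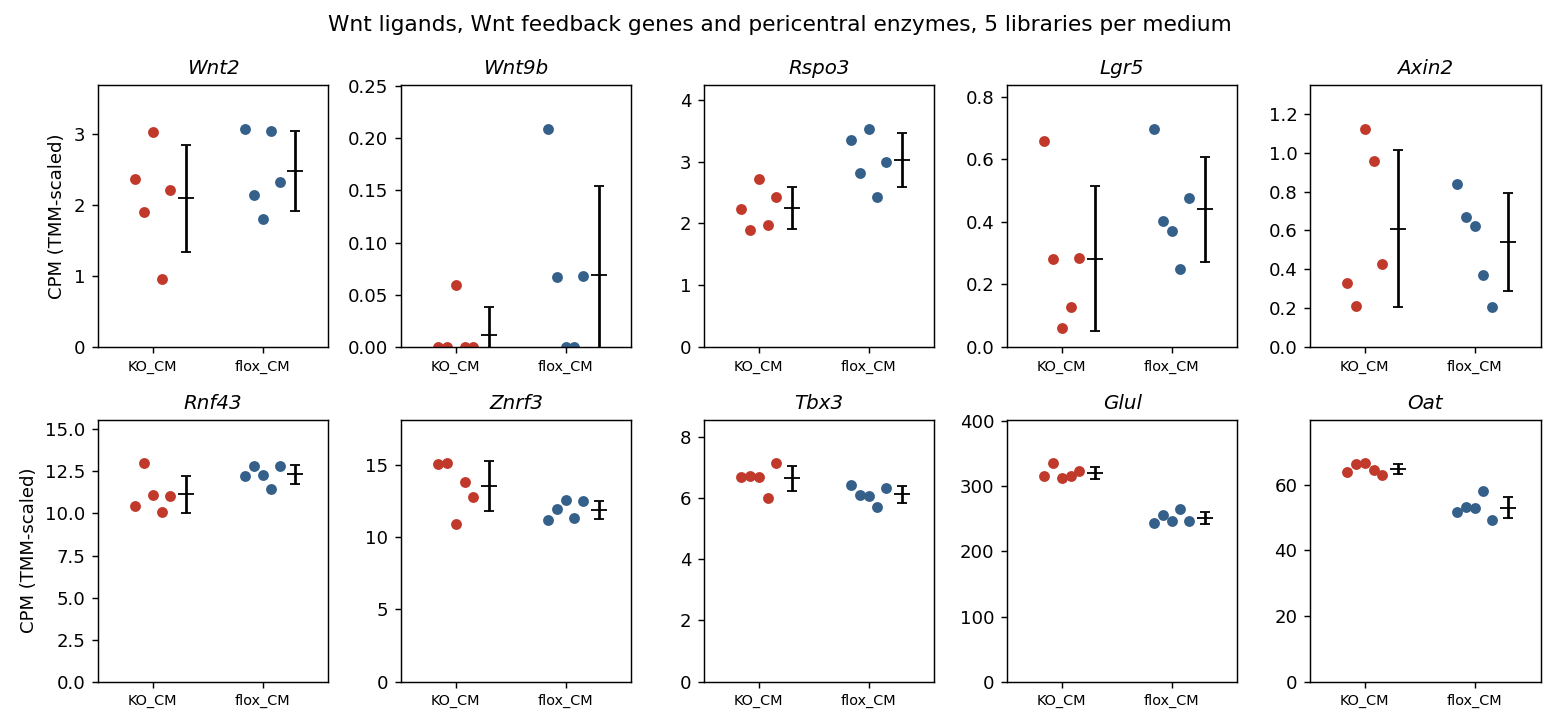
CPM (counts scaled to the size of the library, corrected by TMM, linear axis from 0) of the 10 genes, with 1 point per library for Mttp_KO_CM (red, left) and Mttp_flox_CM (blue, right) and the mean ± SD in black (n = 5 each). The 2 groups are apart for Glul and Oat and overlap for the other 8.

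Each library held from 14283517 to 17178131 counts in Mttp_KO_CM and from 14199798 to 15950530 in Mttp_flox_CM, so 1 count was worth 0.0592 to 0.0714 CPM in Mttp_KO_CM and 0.0620 to 0.0698 CPM in Mttp_flox_CM. The hepatocyte label fitted its markers, led by albumin (Alb) at 25100 ± 594 CPM in Mttp_KO_CM and 29140 ± 507 CPM in Mttp_flox_CM (SD, n = 5). Of 11 hepatocyte markers, 8 fell and 1 rose, beside 18.1% and 18.2% of all genes tested. Markers of other liver cells were present too, and their sums were lower in Mttp_KO_CM, as was the hepatocyte sum. Of 12 macrophage markers, 11 fell and 1 rose. The summed level of 21 endothelial markers was 1643 to 1737 CPM in Mttp_KO_CM and 2850 to 3050 CPM in Mttp_flox_CM. That of 15 stellate cell markers was 233 to 249 CPM in Mttp_KO_CM and 321 to 340.4 CPM in Mttp_flox_CM. Most of the stellate sum was 1 gene, Ecm1, as described below. On testing, 20 of the 21 endothelial markers and 10 of the 13 stellate markers tested fell, beside 18.1% of all genes tested. The medians were -0.91 and -0.77 on the log2 scale against 0.00 over all genes tested. In each list 1 marker was called higher, the endothelial Thbd, described below, and the stellate Angptl6. Angptl6 had 118 counts in Mttp_KO_CM and 56 in Mttp_flox_CM, at 1.55 and 0.741 CPM, and its groups overlapped. It passed the filter on low counts through Mttp_KO_CM, where it was higher, so its fitted change is not read here. Of the defining markers of both lists none was at 0 in all libraries. In bulk RNA, fewer cells of a type and less RNA per cell cannot be told apart. Whether the 5 libraries of 1 medium were separate cultures is not stated, and the spread behind each p-value may therefore be technical.

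Of the ligands, Wnt2 was low in every library. The gene (ENSMUSG00000010797, chromosome 6 from 17988939 to 18030584, minus strand, GRCm39) had 36, 27, 51, 15 and 31 counts in the Mttp_KO_CM libraries (replicates 1 to 4 and the unnumbered one, an order kept below), and 44, 32, 29, 49 and 34 in the Mttp_flox_CM libraries. Both the lowest library, Mttp_KO_CM replicate 4, and the highest by counts, Mttp_KO_CM replicate 3, belonged to the same group, and the groups overlapped. Wnt2 averaged 2.09 ± 0.754 CPM in Mttp_KO_CM and 2.47 ± 0.563 CPM in Mttp_flox_CM, a log2 change of -0.24 (SE 0.236, 95% interval -0.72 to 0.25, edgeR adjusted p = 0.478). The interval takes in both a fall of 0.72 and a rise of 0.25, so neither could be told from no change at this depth.

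Wnt9b, the other central ligand, was at the limit of detection. Its row (ENSMUSG00000018486, chromosome 11 from 103618190 to 103640647, minus strand) held 1 count in all of Mttp_KO_CM, in replicate 3, and 5 counts in Mttp_flox_CM, with 3, 1, 0, 0 and 1 by library. A count of 0 allows up to 3 counts, or 0.214 CPM in the shallowest library, a limit that covers counting error only, and no fold change is given for values under that floor. The difference in mean CPM did not pass an exact two-sided permutation test (p = 0.167, adjusted p = 0.357 over the 3 members that were not fitted).

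Rspo3 lay lower in Mttp_KO_CM, but short of the threshold. It (ENSMUSG00000019880, chromosome 10 from 29328412 to 29411863, minus strand) had 34, 27, 46, 31 and 34 counts in Mttp_KO_CM and 48, 42, 57, 39 and 44 in Mttp_flox_CM. In CPM these were 2.23, 1.89, 2.72, 1.98 and 2.43 in Mttp_KO_CM, against 3.35, 2.81, 3.53, 2.42 and 3.00 in Mttp_flox_CM. Only Mttp_KO_CM replicate 3 and the unnumbered Mttp_KO_CM library reached above the lowest Mttp_flox_CM library, which was replicate 4. The log2 change was -0.42 (SE 0.174, 95% interval -0.78 to -0.06), with an unadjusted p of 0.0237 and an adjusted p of 0.0624 in edgeR. Of 18 alternatives, 5 took it past the threshold, among them leaving out Mttp_KO_CM replicate 3 (log2 -0.50, adjusted p = 0.0393) or Mttp_flox_CM replicate 4 (log2 -0.50, adjusted p = 0.0340).

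**Figure D2:**
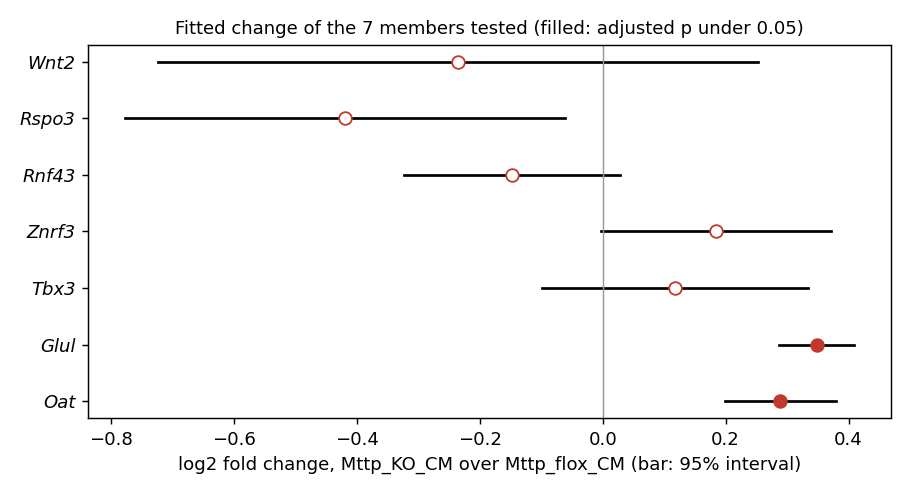
Log2 fold change of Mttp_KO_CM over Mttp_flox_CM for the 7 genes tested, with 95% intervals as bars and filled points for an adjusted p under 0.05. Glul (0.35) and Oat (0.29) are filled, and Rspo3 (-0.42) and Wnt2 (-0.24) have the widest bars.

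The changes of Wnt2 and Rspo3 were set beside those of markers of the cells that make them. Of the 21 endothelial markers, 20 had a lower log2 change than Wnt2 and 19 a lower one than Rspo3. Per 1000 CPM of summed endothelial markers, Wnt2 stood at 1.44, 1.09, 1.77, 0.567 and 1.30 CPM in Mttp_KO_CM, against 1.08, 0.734, 0.621, 1.00 and 0.760 CPM in Mttp_flox_CM. In all, 4 of the 5 Mttp_KO_CM libraries were above every Mttp_flox_CM library and 1, replicate 4, was below all of them. On the log2 scale this ratio was 0.51 higher in Mttp_KO_CM (exact two-sided permutation test, p = 0.135, adjusted p = 0.405 over 6 ratios). For Rspo3 the same ratio was 1.36, 1.09, 1.59, 1.17 and 1.43 in Mttp_KO_CM and 1.18, 0.964, 1.22, 0.798 and 0.983 in Mttp_flox_CM, with 3 of 5 Mttp_KO_CM libraries above every Mttp_flox_CM library. Its log2 difference was 0.39 (exact permutation p = 0.0397, adjusted p = 0.238), so neither ratio passed. Where a pseudocount of 1 CPM replaced 0.1, both did, with 0.61 for Wnt2 (adjusted p = 0.0357) and 0.49 for Rspo3 (adjusted p = 0.0159). At levels near 2 CPM such a pseudocount pulls the ligands' own difference towards 0.

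Set against the 15 stellate cell markers, the groups overlapped. Most of that sum was 1 gene, Ecm1, with a mean of 175 of 241 CPM in Mttp_KO_CM and 216 of 327 CPM in Mttp_flox_CM. Ecm1 fell by 0.3 on the log2 scale, less than the list median of -0.77, so these ratios mainly set the ligands against Ecm1. Rspo3 stood at 7.62 to 11.1 CPM per 1000 CPM of stellate markers in Mttp_KO_CM and at 7.35 to 10.4 in Mttp_flox_CM, a log2 difference of 0.03 (exact permutation p = 0.817, adjusted p = 0.921). Wnt2 differed by 0.15 (exact permutation p = 0.619, adjusted p = 0.921). The sign for Rspo3 turned under 5 of 15 alternatives, with values between -0.04 and 0.37. The 6 ratios include 2 for Wnt9b, which rest on its 6 counts and the pseudocount and are not read here.

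**Figure D3:**
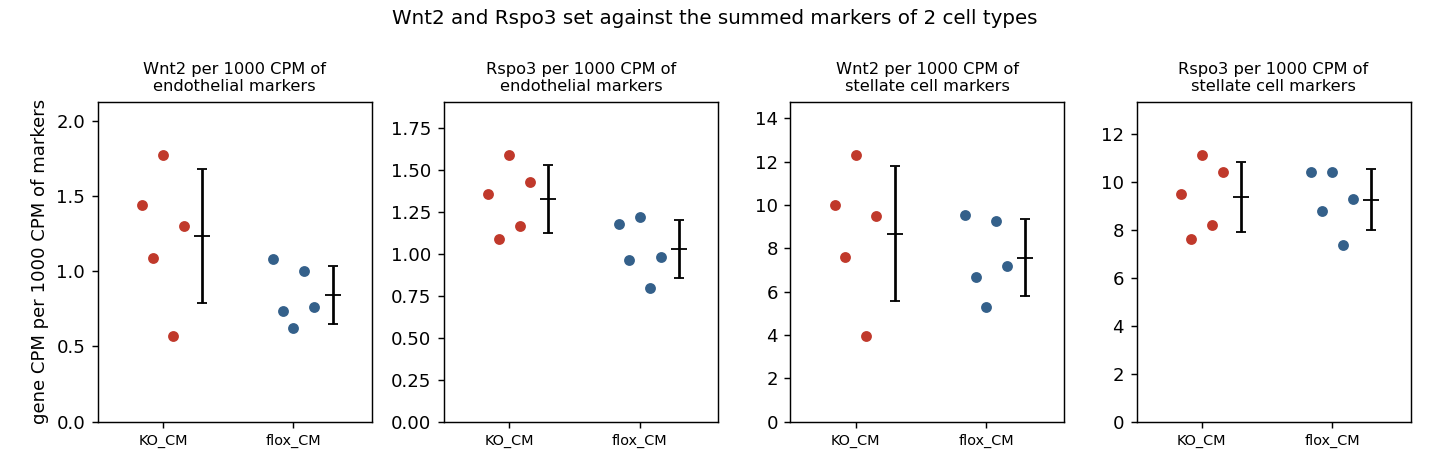
Wnt2 and Rspo3 in CPM per 1000 CPM of summed endothelial (left pair) or stellate cell (right pair) markers, 1 point per library, Mttp_KO_CM in red left of Mttp_flox_CM in blue, with mean ± SD (n = 5 each). Against endothelial markers 4 Mttp_KO_CM libraries of Wnt2 lie above all Mttp_flox_CM libraries, and against stellate markers the groups overlap. The stellate sum is mostly 1 gene, Ecm1.

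Other signals that liver endothelium sends to its neighbours were mostly lower. Of 8 such angiocrine genes tested, 6 fell and 2 did not pass, or 75% lower beside 18.1% of all genes tested. Their median log2 change was -0.60 against 0.00 over all genes. The endothelial markers were lower in the same libraries (median -0.91), and their part in these changes was not tested. Bmp2, a bone morphogenetic protein that raises hepcidin in hepatocytes, averaged 18.1 ± 1.65 CPM in Mttp_KO_CM and 40.3 ± 2.23 CPM in Mttp_flox_CM (log2 -1.16, SE 0.0605, edgeR adjusted p = 7.2e-14). The Notch ligand gene Dll4 fell by 1.04, the platelet-derived growth factor gene Pdgfb by 0.98, and Angpt2, an antagonist of the TIE2 receptor, by 0.61. Hgf, the hepatocyte growth factor gene, which stellate cells make as well, fell by 0.59. Bmp6, by contrast, stood at 52.2 ± 2.35 CPM in Mttp_KO_CM and 51.9 ± 2.34 CPM in Mttp_flox_CM, and the sign of its log2 change of 0.01 turned under 6 of 19 alternatives. Among the central vein markers, Selp, the P-selectin gene, fell by 0.75. Thbd, for thrombomodulin, rose by 0.12 (SE 0.0450, edgeR adjusted p = 0.0372), a call that 11 of 19 alternatives lost, with the log2 change down to 0.08 and the adjusted p up to 0.173. It was lost without either of Mttp_KO_CM replicates 3 and 4, the unnumbered Mttp_KO_CM library, either of Mttp_flox_CM replicates 1 and 3 or the unnumbered Mttp_flox_CM library, where its log2 change was 0.11, 0.11, 0.12, 0.09, 0.11 and 0.11.

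Lgr5, both a receptor for R-spondins and a Wnt target of the innermost hepatocytes, was close to undetected. Its counts (ENSMUSG00000020140, chromosome 10 from 115286216 to 115423685, minus strand) were 10, 4, 1, 2 and 4 in Mttp_KO_CM and 10, 6, 6, 4 and 7 in Mttp_flox_CM. Among the Mttp_KO_CM libraries 4 had no more than 4 counts, but replicate 1 equalled the highest Mttp_flox_CM library, and the groups overlapped. Lgr5 averaged 0.282 ± 0.231 CPM in Mttp_KO_CM and 0.439 ± 0.166 CPM in Mttp_flox_CM (exact two-sided permutation test, p = 0.238, adjusted p = 0.357). Leaving out Mttp_KO_CM replicate 1 made the difference -0.25 CPM (exact permutation p = 0.0317, not adjusted). Of 13 alternatives, only that 1 had a p under 0.05, and the largest p in the same test was 0.484.

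Axin2, the scaffold of the complex that degrades beta-catenin and a common readout of the pathway, was as scarce. It (ENSMUSG00000000142, chromosome 11 from 108811175 to 108841609, plus strand) had 5, 3, 19, 15 and 6 counts in Mttp_KO_CM and 12, 10, 10, 6 and 3 in Mttp_flox_CM. The 2 highest and 1 of the 2 lowest libraries were all Mttp_KO_CM, so the spread within the group was wider than the gap between groups. Its mean level was 0.609 ± 0.405 CPM in Mttp_KO_CM and 0.541 ± 0.251 CPM in Mttp_flox_CM (exact permutation p = 0.730, adjusted p = 0.730). The sign of the difference turned without Mttp_KO_CM replicate 3 (-0.06 CPM), without Mttp_KO_CM replicate 4 (-0.02 CPM) or without the unnumbered Mttp_flox_CM library (-0.02 CPM). With no filter on low counts, edgeR gave log2 0.20 for Axin2 (SE 0.408, adjusted p = 0.796), -0.64 for Lgr5 (SE 0.525, adjusted p = 0.492) and an adjusted p of 0.384 for Wnt9b, in a fit that called 17.7% of 29014 genes, 9.11% of all lower in Mttp_KO_CM.

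The paired ubiquitin ligase genes Rnf43 and Znrf3 were better covered and leaned opposite ways. Rnf43 (ENSMUSG00000034177, chromosome 11 from 87553548 to 87626365, plus strand) was at 10.5, 13.0, 11.1, 10.1 and 11.1 CPM in Mttp_KO_CM and at 12.2, 12.9, 12.3, 11.5 and 12.8 CPM in Mttp_flox_CM. There 4 of 5 Mttp_KO_CM libraries were below every Mttp_flox_CM library, and replicate 2 was above them all (log2 -0.15, SE 0.0850, edgeR adjusted p = 0.191). Znrf3 (ENSMUSG00000041961, chromosome 11 from 5226324 to 5394847, minus strand) was at 15.04, 15.08, 10.9, 13.8 and 12.8 CPM in Mttp_KO_CM and at 11.2, 11.9, 12.5, 11.3 and 12.5 CPM in Mttp_flox_CM. Here 4 of 5 Mttp_KO_CM libraries were above every Mttp_flox_CM library, and replicate 3 was below them all. Its log2 change was 0.18 (SE 0.0906, 95% interval -0.003 to 0.371, edgeR adjusted p = 0.121), and 0.26 without Mttp_KO_CM replicate 3 (adjusted p = 0.0206). Of 19 alternatives, only that 1 took it past the threshold. Rnf43 overlaps 1110028F11Rik, a non-coding gene on the same strand with 446 counts against 1783 for Rnf43, so reads could be split between them.

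Tbx3, a T-box transcription factor and Wnt target of pericentral hepatocytes (ENSMUSG00000018604, chromosome 5 from 119808734 to 119822789, plus strand), was at a low level in all libraries. It was at 6.70, 6.74, 6.69, 5.99 and 7.14 CPM in Mttp_KO_CM and at 6.42, 6.09, 6.08, 5.71 and 6.34 CPM in Mttp_flox_CM. All but 1 of the 5 Mttp_KO_CM libraries exceeded all Mttp_flox_CM libraries and replicate 4 did not. The difference was log2 0.12 (SE 0.105, 95% interval -0.10 to 0.33, edgeR adjusted p = 0.419).

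Glul had the smallest adjusted p of the 7 members tested. It encodes glutamine synthetase, which fixes ammonia into glutamine in the last rows of hepatocytes before the central vein (ENSMUSG00000026473, chromosome 1 from 153775690 to 153785469, plus strand). The level was 315, 335, 312, 316 and 323 CPM in Mttp_KO_CM, against 244, 255, 246, 265 and 247 CPM in Mttp_flox_CM. Every Mttp_KO_CM library was above every Mttp_flox_CM library, which held for 25.7% of all genes tested in either direction. Glul averaged 320.2 ± 9.10 CPM in Mttp_KO_CM and 252 ± 8.84 CPM in Mttp_flox_CM, a log2 change of 0.35 (SE 0.0295, 95% interval 0.29 to 0.41, edgeR adjusted p = 7.5e-10). Under 19 alternatives the change stayed between 0.31 and 0.37 and past the threshold.

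Oat moved the same way. Its product, ornithine aminotransferase, turns ornithine towards glutamate and so feeds the same pericentral nitrogen pathway (ENSMUSG00000030934, chromosome 7 from 132159207 to 132178127, minus strand). Levels were 64.1, 66.4, 66.6, 64.4 and 62.9 CPM in Mttp_KO_CM and 51.6, 53.2, 53.1, 58.1 and 49.2 CPM in Mttp_flox_CM, without overlap. The log2 change was 0.29 (SE 0.0437, 95% interval 0.20 to 0.38, edgeR adjusted p = 9.0e-06), and it stayed between 0.25 and 0.32 and past the threshold under 19 alternatives. Both rises were of ordinary size, since the median over the 2585 genes called higher was log2 0.23, and 683 of them had a larger change than Glul and 912 a larger one than Oat. Oat overlaps the annotated span of Fgfr2, which had 434 counts against 8986 for Oat, and Glul that of Teddm2 on the other strand, which had 39 against 43512. The summed level of 11 hepatocyte markers, mostly albumin and other plasma proteins, was lower in the same libraries, at 47610 to 49260 CPM in Mttp_KO_CM and 57070 to 60120 CPM in Mttp_flox_CM. The part of any change in cell makeup in the Glul and Oat values was not tested.

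The promoters of the 2 genes that rose are shown because these were the members that moved together. Each runs from 250 bases before to 50 bases after the start of the gene, from RefSeq on GRCm38.p6 (chr1:153899679-153899978, plus strand, for Glul and chr7:132576349-132576648, minus strand, for Oat), with CCAAT on either strand in capitals.
Glul: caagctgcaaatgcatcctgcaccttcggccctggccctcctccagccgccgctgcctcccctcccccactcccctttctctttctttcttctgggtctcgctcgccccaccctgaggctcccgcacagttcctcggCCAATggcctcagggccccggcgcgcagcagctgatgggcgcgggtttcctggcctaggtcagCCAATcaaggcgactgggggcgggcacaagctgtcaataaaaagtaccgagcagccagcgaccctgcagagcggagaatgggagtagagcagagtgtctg
Oat: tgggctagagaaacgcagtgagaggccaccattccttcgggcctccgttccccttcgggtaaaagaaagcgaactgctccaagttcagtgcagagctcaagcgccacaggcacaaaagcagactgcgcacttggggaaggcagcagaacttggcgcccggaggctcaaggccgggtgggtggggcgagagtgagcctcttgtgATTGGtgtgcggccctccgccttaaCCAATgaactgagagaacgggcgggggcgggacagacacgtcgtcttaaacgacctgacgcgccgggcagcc
CCAAT is a general promoter element, and each window held it 2 times, starting 113 and 50 bases before the gene start in Glul and 47 and 22 bases before it in Oat. Of all 32851 windows in the table, 37.4% held at least 1 and 11.7% at least 2. The TCF/LEF letters CTTTGAA or CTTTGAT, searched on both strands, were in neither window, nor in the other 5 windows of the 6 members matched (Wnt2, Wnt9b, Axin2 and Rnf43, the last with 2), and 8.65% of all windows held them. The members with no window in the table were Rspo3, Lgr5, Znrf3 and Tbx3. These letters are a description of short windows, and distal elements were not examined.

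Per length, the members spanned a wide range of levels, given here as the authors' deposited FPKM. In Mttp_KO_CM Glul led at 84.2 ± 2.41 FPKM, then Oat at 27.3 ± 0.672. Znrf3 (1.70 ± 0.221) and Rnf43 (1.69 ± 0.170) followed without a gap between them, and then came Tbx3 (0.998 ± 0.0616), Wnt2 (0.921 ± 0.332) and Rspo3 (0.724 ± 0.108), which overlapped as neighbours. Axin2 at 0.110, Lgr5 at 0.0273 and Wnt9b at 0.00260 closed the order, each overlapping the next. In Mttp_flox_CM the order was Glul at 66.1 ± 2.39 FPKM, Oat at 22.3 ± 1.38, Rnf43 at 1.87 ± 0.0839 and Znrf3 at 1.50 ± 0.0804. Below them Wnt2 (1.09 ± 0.249), Rspo3 (0.972 ± 0.141) and Tbx3 (0.920 ± 0.0411) again overlapped as neighbours. In Mttp_flox_CM the ranges of Rnf43 and Znrf3 did not overlap, and in Mttp_KO_CM they did.

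In a wider set of Wnt pathway and angiocrine genes more fell than rose. Across 8 lists of 86 Wnt pathway and angiocrine genes, which hold 7 of the members but not Glul, Oat or Tbx3, 49 were tested, of which 5 rose and 17 fell (median log2 -0.17). That is 44.9% called, 10.2% higher and 34.7% lower, beside 36.4%, 18.2% and 18.1% of all genes tested. Of the 17 that fell, 6 were of the angiocrine list described above, and another was Dkk3, which is set aside below. The pooled share is therefore not one for the Wnt pathway alone. Without both unnumbered libraries 3 rose. Among 5 Wnt ligand genes tested, 1 passed. Wnt5b, a ligand best known for beta-catenin-independent signals, rose and stood at 3.32 ± 0.659 CPM in Mttp_KO_CM, against 1.76 ± 0.155 CPM in Mttp_flox_CM (log2 0.91, SE 0.182, edgeR adjusted p = 3.0e-04). Wnt9a, Wnt2b and Wnt5a did not pass, at log2 -0.14, -0.29 and 0.06. Wls, which carries Wnt proteins to the cell surface for release, fell by 0.37 (SE 0.0953, adjusted p = 0.0033).

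On the receiving side, 11 of 18 receptor genes were tested, and 1 rose and 3 fell, a share of 36.4% that equals the 36.4% called among all genes. Fzd4, a Frizzled receptor that is abundant in endothelium, was at 46.5 ± 2.65 CPM in Mttp_KO_CM and 63.7 ± 1.57 CPM in Mttp_flox_CM (log2 -0.45, SE 0.0434, adjusted p = 7.4e-09). Ror1 (log2 -0.37) and Fzd5 (log2 -0.20) were the others that fell, and both calls were lost without Mttp_KO_CM replicate 1 (log2 -0.29 and -0.15). The Fzd5 call was lost as well without Mttp_KO_CM replicate 3, the unnumbered Mttp_KO_CM library, Mttp_flox_CM replicates 3 or 4 or the unnumbered Mttp_flox_CM library (adjusted p = 0.0984, 0.0754, 0.0920, 0.0718 and 0.0685), and the Ror1 call without Mttp_flox_CM replicate 2 (adjusted p = 0.109). Lgr4, an R-spondin receptor related to Lgr5, was at 61.4 ± 1.26 CPM in Mttp_KO_CM and 56.0 ± 3.84 CPM in Mttp_flox_CM (log2 0.13, adjusted p = 0.0241). That call was lost without Mttp_KO_CM replicate 3, Mttp_flox_CM replicate 1 or the unnumbered Mttp_flox_CM library (adjusted p = 0.0507, 0.0891 and 0.0854), and with library size alone (adjusted p = 0.116). The co-receptor genes Lrp5 and Lrp6 did not pass, at log2 0.06 and 0.04, with Lrp6 at -0.002 under library size alone. Nor did Ctnnb1, the beta-catenin gene, at log2 -0.06 (edgeR adjusted p = 0.0695), which passed with DESeq2, with a stricter filter and with library size alone (log2 -0.06, -0.06 and -0.10).

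Secreted antagonists were at low levels, and 3 of 11 could be tested, Sfrp4, Frzb and Dkk3. Stellate cell markers were lower in the same libraries (median -0.77), and their part in the values of these genes was not tested. Sfrp4, which binds Wnt proteins, was at 1.48 ± 0.393 CPM in Mttp_KO_CM and 4.24 ± 0.641 CPM in Mttp_flox_CM (log2 -1.51), and Frzb fell by 0.74. Dkk3 had 32 counts in Mttp_KO_CM and 102 in Mttp_flox_CM and passed the filter on low counts through Mttp_flox_CM alone, so its fitted change is not read here. Of 15 intracellular genes tested 2 rose and 2 fell, or 26.7% beside 36.4% of all genes. Tcf7, a TCF transcription factor and itself a Wnt target, was at 7.42 ± 0.651 CPM in Mttp_KO_CM and 10.1 ± 0.916 CPM in Mttp_flox_CM (log2 -0.45, adjusted p = 8.0e-04). The co-activator genes Bcl9 and Bcl9l went opposite ways, at log2 0.38 and -0.25. Dvl1, for the Dishevelled protein that relays the Frizzled signal, rose by 0.11 (edgeR adjusted p = 0.0247), a call lost without Mttp_KO_CM replicates 1 or 2 or Mttp_flox_CM replicates 2 or 4 (adjusted p = 0.0845, 0.0503, 0.0672 and 0.0881). Among common Wnt targets that are not members, 4 were tested and all passed, 1 higher and 3 lower, beside 36.4% called of all genes. With the members Rnf43 and Znrf3, which did not pass, the list had 6 tested genes, of which 66.7% were called. Myc rose by 0.34, while Ccnd1, for cyclin D1, fell by 0.33 and Tcf7 as above. Nkd1, a feedback inhibitor of the pathway, was at 1.52 ± 0.456 CPM in Mttp_KO_CM and 2.47 ± 0.559 CPM in Mttp_flox_CM (log2 -0.70, adjusted p = 0.0177), a call lost without Mttp_KO_CM replicate 3 (log2 -0.55, adjusted p = 0.0648) or Mttp_flox_CM replicate 2 (log2 -0.59, adjusted p = 0.0641).

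Other genes of the pericentral zone went both ways. Of 19 non-member pericentral genes tested, 6 rose and 7 fell (median log2 -0.02), or 31.6% and 36.8% beside 18.2% and 18.1% of all genes. With the 5 tested members of that list counted in, 8 of 24 rose and 7 fell, and 4 fell without both unnumbered libraries. Cyp2a5, a coumarin hydroxylase, was at 509 ± 20.9 CPM in Mttp_KO_CM and 405 ± 11.7 CPM in Mttp_flox_CM (log2 0.33, SE 0.0295), close to the change of Glul. Cyp2e1, the ethanol-oxidising cytochrome, rose by 0.25, and Nr1i3, the xenobiotic receptor CAR, by 0.65. In the other direction Ahr, the receptor for dioxins, fell by 0.72 (SE 0.0388, adjusted p = 1.3e-13), Lect2, a secreted protein, by 0.61, the tight junction gene Cldn2 by 0.26 and Cyp1a2, a target of Ahr, by 0.25. Among 21 periportal genes 11 fell and 2 rose (median log2 -0.18), or 52.4% and 9.52% beside 18.1% and 18.2% of all genes. Cps1, the entry enzyme of the urea cycle, was at 759 ± 83.5 CPM in Mttp_KO_CM and 1133 ± 127 CPM in Mttp_flox_CM (log2 -0.58, SE 0.0623), and Hal, which breaks down histidine, fell by 0.71. Alb fell by 0.22 and Serpina1b by 0.71, while G6pc, for glucose-6-phosphatase, and Apoa4 rose by 0.79 and 0.31. A difference between the 2 zones as lists was not tested.

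**Figure D4:**
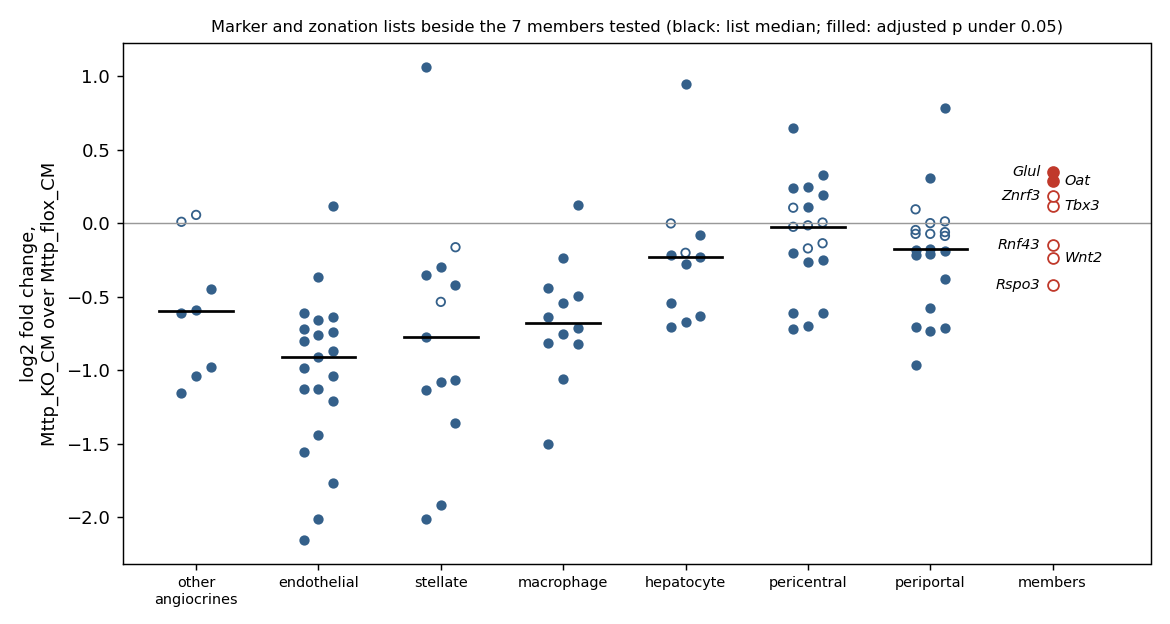
Log2 fold change of Mttp_KO_CM over Mttp_flox_CM for each tested non-member gene of 7 lists (blue, filled for an adjusted p under 0.05, black line at the median) beside the 7 members tested (red). The endothelial median is at -0.91 and the stellate median at -0.77, below Wnt2 and Rspo3, and the pericentral genes spread on both sides of 0 with Glul and Oat above their median.

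Genes with the most similar profile were looked for over the 10 libraries, on log2 CPM, among genes with a mean of at least 5 CPM. For Wnt2 they were Orai2, Sirt4, Mrs2, Cdkn2aip and Ccdc88a (Pearson r from 0.851 to 0.929 among 10612 genes), none of which passed the test between the media. For Glul they were Zdhhc5, Acat1, Ralgapa2, Gsr and Tmem184c (r from 0.987 to 0.990), all of which rose, by 0.28 to 0.74 on the log2 scale. Glul itself differed between the groups without overlap, so a pick by such an r fixed that direction in advance. The 10 points share the 2 media and the depth of their libraries, and those for Wnt2 rest on 15 to 51 counts a library.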

How the data were processed

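Poly-A RNA of cultured hepatocytes was sequenced in 10 libraries, 5 per medium. The authors deposited whole-number counts per gene and FPKM values. Per the submitters' processing notes, reads were handled on GRCm39 by the tools HISAT2 (version 2.0.5) and featureCounts (version 1.5.0-p3). Those notes name no annotation release, strand setting or handling of multi-mapping reads, so overlapping genes cannot be told apart by strand. Each deposited FPKM equalled the count over gene length and 1 constant per library, and the summed counts were 1.00 to 1.01 of that constant in Mttp_KO_CM and 0.980 to 0.984 in Mttp_flox_CM, so the FPKM carry a scaling between libraries that the sources do not describe.

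The names of 8 columns matched a label. The number in the other 2 names, 1 per group, is absent from the labels, and they were assigned by their letter and are called unnumbered. In R 4.3.3, edgeR 4.0.16 kept 14183 genes (filterByExpr, minimum count 10, minimum total 15, 99.8% of counts), applied TMM scaling and fitted a quasi-likelihood model with 1 group term. CPM are counts relative to the size of the TMM-scaled library. Fold changes use a prior count of 0.125 and run Mttp_KO_CM over Mttp_flox_CM, with the standard error taken from the F statistic. Members that the filter removed and ligand-to-marker ratios (log2, pseudocount 0.1 CPM) got exact two-sided permutation tests over libraries, whose smallest possible p is 0.00794 for 5 against 5. The exact test of the filtered members was added after seeing the data.

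Members, gene lists and tests were chosen with earlier results of these data known. The rule for other named genes took up to 4 per list by p-value and the 5 most similar to Wnt2 and Glul. Ctnnb1, Lrp5, Lrp6, Cyp2e1, Cyp1a2, Nr1i3, G6pc, Apoa4, Hgf, Bmp6, Ecm1, Angptl6 and the genes under other observations were chosen after their values were seen. Of the listed symbols, 2 matched no row, 1 of them a second name of G6pc. DESeq2 1.42.0, limma 3.58.1 on log2 FPKM, other scalings, filters and left-out libraries were the alternatives. Fits were tested on simulated counts. No 2 libraries of a group agreed within sampling noise (chi-square per degree of freedom 2.09 to 4.31).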

Additional observations from a re-analysis of the deposited data

Results flagged for a closer look

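One of 40 sets of 5 libraries examined held a value far from the rest. Wnt9b was at 0.0592 CPM in Mttp_KO_CM replicate 3, which is a single count, and at 0 in the other 4 Mttp_KO_CM libraries. Chance flags about 1 in 20 sets of normally distributed values. That rate does not hold for this set, since any lone count beside 4 zeros is flagged.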

How the results depend on the processing

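Glul and Oat kept their direction and their call under all 19 alternatives run for them, and Wnt2, Rnf43 and Tbx3 kept their direction and did not pass under any. Rspo3 passed with library size alone (log2 -0.46), on log2 of FPKM plus 1 (-0.19) and of FPKM plus 0.1 (-0.38), and ranged from -0.50 to -0.36 with 1 library left out. Znrf3 ranged from 0.14 to 0.26 with 1 library left out. The count of members that fell was 1, Rspo3, under those 3 settings and 0 to 1 with 1 library left out. The 5 genes of the Wnt lists that rose were 3 with library size alone and 3 without both unnumbered libraries, and the 7 pericentral genes that fell were 4 without them.

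The Axin2 difference ran from -0.06 to 0.17 CPM and the Lgr5 difference from -0.251 to -0.093 CPM with 1 library left out. Ratios to endothelial markers passed with a pseudocount of 1 for Wnt2 (0.61) and Rspo3 (0.49), and for Rspo3 against the mean log2 of the markers (0.60). The Wnt9b ratio was 0.72 with a pseudocount of 1 and 0.63 from FPKM, both past the threshold, and -0.72 with a pseudocount of 0.01. In all, 3 of 15 alternatives passed for this ratio, and 1 of 15 for the ratio of Wnt9b to stellate markers. At so few counts the Wnt9b ratios, here and below, follow the marker sum and the pseudocount. They are not read as a change of Wnt9b. With 1 library left out, Wnt9b to endothelial markers ran from 0.14 to 0.57, Wnt9b to stellate markers from -0.22 to 0.21 and Rspo3 to stellate markers from -0.044 to 0.10. Against stellate markers Wnt9b turned to 0.37 with a pseudocount of 1, 0.22 from FPKM, 0.29 with mean log2 and 0.011 without the unnumbered libraries, and Rspo3 to -0.007 from FPKM and -0.003 without the unnumbered libraries. Without a called change, the signs of Bmp6 (-0.03) and Lrp6 (-0.002) turned with library size alone, and with 1 library left out those of Bmp6 (-0.012 to 0.032), Wnt5a (-0.043 to 0.114) and Mrs2 (-0.045 to 0.004). The cause of these shifts was not tested.

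Same-numbered libraries of the 2 groups did not deviate together (correlations of their deviations from -0.01 to 0.08 over 4 numbers, and not every library correlated best with its own number), so the numbers were not taken as pairs. With the replicate number as a block over the 4 numbered libraries of each group, Glul was at 0.34 and Oat at 0.27, and the block and the 4 numbered libraries without it gave the same calls for every member fitted. The block called 2326 genes higher and 2325 lower, and Lgr4, Fzd5, Nkd1 and Thbd did not pass in it. Depth limits Wnt9b, Lgr5 and Axin2, which had at most 19 counts in a library.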

Other observations

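Of 43 genes of the lists that were too scarce for the filter, 16 had fewer raw counts in Mttp_KO_CM, 16 had more and 11 had equal counts. With no filter on low counts, edgeR called 4 of them lower and 1 higher, in a fit that called 17.7% of genes, 9.11% lower in Mttp_KO_CM. Notum, a secreted enzyme that inactivates Wnt proteins and a target of the pathway, had 3 counts in all Mttp_KO_CM libraries and 28 in Mttp_flox_CM (0 to 2 by library in Mttp_KO_CM and 1 to 14 in Mttp_flox_CM). Wnt4 had 15 counts in Mttp_KO_CM (1 to 4 by library) and 47 in Mttp_flox_CM (2 to 13). Cyp7a1, the rate-limiting enzyme of bile acid synthesis and a pericentral gene, had 12 in Mttp_KO_CM (1 to 6) and 53 in Mttp_flox_CM (5 to 17). Libraries of the 2 groups overlapped for each. The adjusted p in that fit was 0.00195, 0.0132 and 6.2e-04 for Notum, Wnt4 and Cyp7a1. Hand2, a stellate cell transcription factor, had 23 counts in Mttp_KO_CM and 70 in Mttp_flox_CM (adjusted p = 0.00149). The gene called higher was Wnt16, with 7 counts in Mttp_KO_CM (1 to 2 by library) and 0 in Mttp_flox_CM (adjusted p = 0.0498). All the genes called in that fit were named after its results were seen, and at such counts their changes are not read here. Fzd9 had 45 counts in Mttp_KO_CM and 25 in Mttp_flox_CM and did not pass (adjusted p = 0.265). Lef1, a Wnt-responsive transcription factor, had 0 counts in all 10 libraries.

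The ratio of the 2 ligase genes is given as a description with no test, since it was picked after the pair was seen to lean opposite ways and neither gene passed on its own. Znrf3 had 1.44, 1.16, 0.979, 1.37 and 1.15 counts per count of Rnf43 in Mttp_KO_CM, against 0.914, 0.927, 1.02, 0.984 and 0.973 in Mttp_flox_CM. In all, 4 of 5 Mttp_KO_CM libraries were above every Mttp_flox_CM library, and replicate 3 was within their range.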
